A study of Mus musculus with 208 samples.

Results

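Among mouse strains that all received the same infusion of isoproterenol (ISO), a β-adrenergic agonist, Nppb transcript was higher after ISO in some and lower in others, and the hearts of these opposite groups were compared here. The strains belong to the Hybrid Mouse Diversity Panel (HMDP), and those that had at least 1 untreated and 1 ISO array were ranked by the ISO minus untreated difference at the Nppb probe ILMN_2726837, and the top 29 strains, called rising, were set against the bottom 29, called falling. They were chosen by this difference from 87 strains with both conditions and 99 strains in all, and their arrays were 65 and 61 of 208. Because the Nppb difference chose the strains, it is given as a description, with no test, and all tests concern the other 25696 probes. Those probes were read on the same arrays as Nppb, so anything an array does to many transcripts at once enters both the ranking and the tests.

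All animals were female inbred mice without engineered alleles, and the samples were left ventricle (LV) labeled as 10 weeks old. Mice of the ISO group were given 30 µg of Isoproterenol per g of body weight per day for 3 weeks by an implanted minipump, and the untreated group went without the drug for the same time. The design text of the series states another dose. The methods describe the profiled RNA as pooled from biological replicates, and the number of mice on each array is not given in the sources used here. Every error below is thus the spread between strains, and fewer cells of a type cannot be told apart from less RNA per cell. The rising strains held 12 classical inbred strains and 17 recombinant inbred (RI) strains, which are inbred descendants of a cross between a pair of parents. The falling strains held 6 classical and 23 RI strains.

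Nppb encodes B-type natriuretic peptide, a hormone that cardiomyocytes make and release when the ventricular wall is stretched. Its relative Nppa encodes the atrial peptide. Both peptides bind the guanylyl cyclase receptor Npr1, which raises cyclic GMP and promotes salt excretion and vasodilation, while Npr3 clears them. Higher ventricular Nppb and Nppa, with a shift between the myosin heavy chains Myh6 and Myh7, is the classical transcript sign of a loaded or failing ventricle.

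The labels of some arrays are in doubt, which bears on every comparison below. Over the 500 probes that varied most in common between the conditions, 142 of 196 arrays resembled the array of their own strain in the other condition best, but 0 did on BeadChips (array slides) 12, 19, 23, 24 and 25. These 5 BeadChips held 11 arrays of 7 rising strains and 9 arrays of 6 falling strains. All arrays resembled their own strain best in 20 rising and 19 falling strains, and no array did in 6 rising and 5 falling strains. The untreated KK/HlJ array and the ISO BXD50/RwwJ array resembled each other best (r = 0.93), as did the untreated BXD-12/TyJ and the ISO BXA-8/PgnJ arrays (r = 0.92). Among the strains concerned are BXD-20/TyJ and KK/HlJ near the top of the ranking and BXD-5/TyJ, BXD-12/TyJ and BXH-6/TyJ at the bottom. The 7 probes called below are therefore also given without those BeadChips, and for pairs of arrays that lay on 1 BeadChip and matched in identity (23 rising and 19 falling strains). The mean level of 11 ventricular cardiomyocyte markers was between 12.72 and 13.13 on the log2 scale in the untreated rising and between 12.73 and 13.10 in the untreated falling strains, where the median probe of an array was near 5. After ISO these ranges were 12.25 to 13.09 and 12.75 to 13.13. The mean of 15 atrial markers varied more, from 6.61 to 9.43 over both groups and conditions.

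The Nppb difference ran from 2.92 in BXD66/RwwJ to -1.58 in BXH-6/TyJ on the log2 scale. In the rising strains it was 0.53 at the lowest, 0.82 at the median and 2.92 at the highest, a mean of 0.99 (SD 0.52, n = 29). In the falling strains it was -1.58 at the lowest, -0.51 at the median and -0.06 at the highest, a mean of -0.55 (SD 0.42, n = 29). Every rising strain was therefore above 0 and every falling strain below it, although the highest falling strain was close to no difference. This separation at 0 did not hold without BeadChips 12, 19, 23, 24 and 25. Of 26 falling strains 24 were then below 0 and the highest had 0.12, while the lowest of 26 rising strains had 0.05. Just inside the limits lay BXH-9/TyJ (0.53) and BXD79/RwwJ (-0.06), and just outside lay C57BLKS/J (0.53) and BXD43/RwwJ (-0.02), so the groups have no gap between them and the middle strains.

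**Figure D1:**
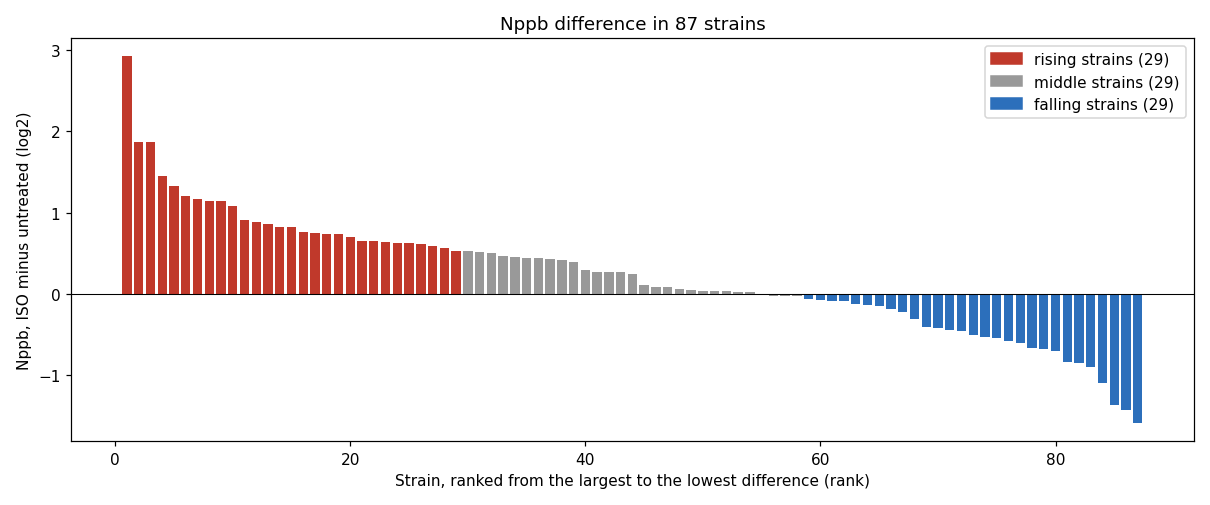
Nppb difference (log2 of ISO minus log2 of untreated, vertical axis) in 87 strains ordered by rank (horizontal axis), with the rising strains in red, the middle strains in gray and the falling strains in blue. The bars fall without a step from 2.92 to -1.58.

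The group means of Nppb lay apart without and with ISO, in opposite order. Untreated Nppb in the rising strains was 10.70 at the lowest, 12.95 at the median and 14.09 at the highest, and in the falling strains it was 12.50, 13.65 and 14.74. After ISO the same values were 11.84, 13.89 and 14.97 in the rising strains and 11.65, 13.22 and 14.07 in the falling strains. The ranges overlapped in both conditions, and the means crossed, from 12.84 against 13.65 without ISO to 13.83 against 13.09 with it. Over the 87 strains the difference had a correlation of -0.58 with the untreated level and of 0.46 with the ISO level, which is in part arithmetic, since the difference contains both levels. Nppb was detected on 208 of 208 arrays and was brighter than almost all other probes, at a median percentile of 99.4 on its array.

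**Figure D2:**
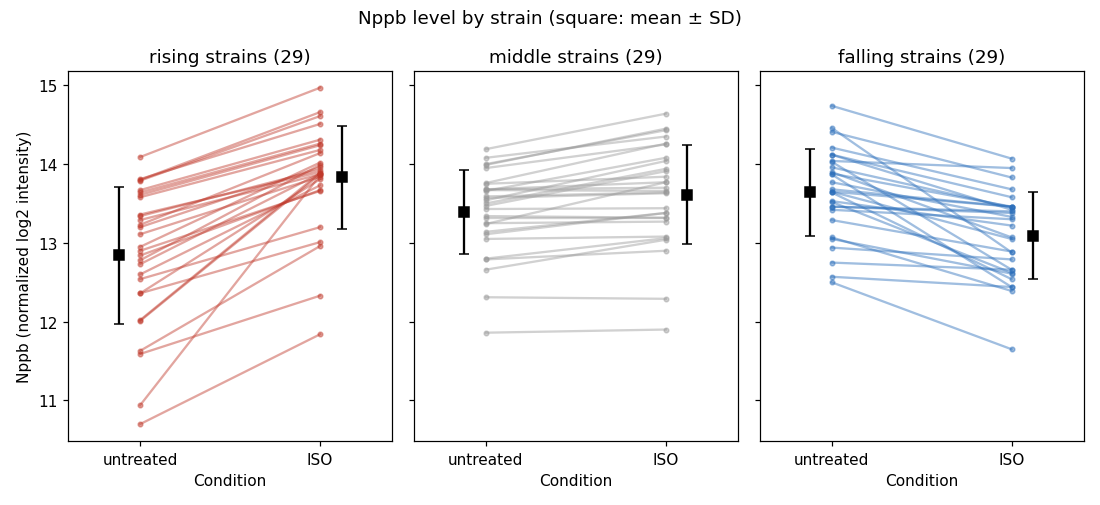
Nppb level (normalized log2 intensity, vertical axis) without and with ISO, with 1 line for each strain and a panel for each group. Squares are means with SD over 29 strains, and the mean goes from 12.84 to 13.83 in the rising and from 13.65 to 13.09 in the falling strains.

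Repeat arrays show how far a single array can place a strain. In 22 cases of a strain and condition measured on 2 arrays, the arrays differed at Nppb by 0.04 at the least, 0.54 at the median and 2.02 at the most. In the rising strain BXD-40/TyJ the untreated arrays read 12.28 and 13.40, and in the falling strain BUB/BnJ they read 12.54 and 14.49. The BUB/BnJ array that read 14.49 and some other repeats lay on BeadChip 12, where no array resembled its own strain best. A gap can thus hold an exchanged label as well as the spread of repeats, and the part of each was not tested. A median gap of 0.54 is about as wide as the mean difference of the falling strains, so the rank of a strain with 1 array a condition is loosely fixed. Over identity-matched pairs the means were 0.98 in 23 rising and -0.47 in 19 falling strains. Both directions occurred in every strain family. The median Nppb difference was 0.51 in the 27 classical strains, 0.12 in the 22 BXD/RwwJ, 0.03 in the 11 BXD/TyJ, 0.07 in the 16 AXB/BXA and 0.03 in the 7 CXB strains, and 0.28 in the 4 BXH strains.

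Nppb and Nppa are neighbors on chromosome 4. The 250 bases before each start site are shown because the pair shares sequence motifs there although their transcripts were related only loosely across these strains. Capitals mark matches on either strand to GATAA, the core bound by GATA factors, to GGAATG, the M-CAT core, to TATAAA, the TATA box, and to TGACTCA, an AP-1 site. The sequences are those of RefSeq in build GRCm38.p6, at chr4:147985650-147985899, plus strand, and chr4:148000472-148000721, plus strand.
Nppb: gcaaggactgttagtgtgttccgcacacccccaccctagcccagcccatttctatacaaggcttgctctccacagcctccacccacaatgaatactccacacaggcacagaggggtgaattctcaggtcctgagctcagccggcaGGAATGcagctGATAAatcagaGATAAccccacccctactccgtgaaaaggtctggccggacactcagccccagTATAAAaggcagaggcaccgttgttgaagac
Nppa: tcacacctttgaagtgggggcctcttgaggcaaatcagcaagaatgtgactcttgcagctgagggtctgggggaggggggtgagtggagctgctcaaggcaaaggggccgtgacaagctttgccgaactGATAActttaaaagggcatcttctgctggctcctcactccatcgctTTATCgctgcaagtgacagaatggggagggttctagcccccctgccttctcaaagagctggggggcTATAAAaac
The Nppb stretch holds 2 matches to GATAA, 1 to GGAATG and 1 to TATAAA, and the Nppa stretch holds 2 matches to GATAA and 1 to TATAAA. Neither holds TGACTCA. Of 32851 promoters of this length, 22.6% hold GATAA, 12.6% GGAATG, 12.4% TATAAA and 4.46% TGACTCA. A match is a description of the letters, not a site shown to be used.

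Few other transcripts separated the groups. In the ISO minus untreated difference, 7 of 25696 probes (0.0272%) passed an adjusted p-value under 0.05 (limma, Benjamini-Hochberg) and an absolute log2 difference over 0.2, which is 14.9% on the linear scale. Of these, 2 were higher in the rising strains (0.00778%) and 5 were lower (0.0195%). At an unadjusted p-value under 0.05 there were 1732 probes. The ISO change of Tnfrsf12a was higher in the rising strains, and those of Ces1d, Cmtm8, Kcnh2, Pcnt and Gab1 were lower, together with that of a probe without a gene name that was higher.

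Tnfrsf12a, the receptor of the cytokine TWEAK, showed the largest difference. Its ISO minus untreated difference in the rising strains was -0.33 at the lowest, 1.08 at the median and 2.93 at the highest, and it was above 0 in 26 of 29. In the falling strains it was -1.94, -0.04 and 1.47, with 14 of 29 strains above 0. The groups overlapped but were centered apart, by 1.12 on the log2 scale (SE 0.21, adjusted p-value = 0.0236, limma), or 2.17-fold. Tnfrsf12a also rose in the middle strains (mean 0.57, adjusted p-value = 0.00904, limma), so a rise was not particular to the rising strains. The untreated Tnfrsf12a level had a mean of 9.49 (SD 0.77) in the rising and 10.04 (SD 0.78) in the falling strains, and the ISO level 10.56 (SD 0.64) and 9.99 (SD 0.56). Neither level by itself passed between the groups (adjusted p-value = 0.999 for each). Within the sets into which the BeadChips fall, the difference was 0.42, 1.19 and 1.4. Without BeadChips 12, 19, 23, 24 and 25 it was 0.97 (adjusted p-value = 0.0770) and over identity-matched pairs 1.05 (adjusted p-value = 0.0872), which ends the call while the value stays close. The 250 bases before its start are shown because it is the member with the largest value, and they hold no match to any of the motifs named above (chr17:23677450-23677699, minus strand, RefSeq, GRCm38.p6).
Tnfrsf12a: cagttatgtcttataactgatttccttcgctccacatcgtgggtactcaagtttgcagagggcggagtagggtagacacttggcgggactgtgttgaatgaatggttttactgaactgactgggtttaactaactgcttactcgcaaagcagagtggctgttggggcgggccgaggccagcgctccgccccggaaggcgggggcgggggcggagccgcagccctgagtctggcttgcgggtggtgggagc

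Ces1d, a carboxylesterase that hydrolyzes lipid esters, moved the other way. Its difference was -1.79 at the lowest, -0.90 at the median and 0.30 at the highest in the rising strains, where 27 of 29 were below 0. In the falling strains it was -1.10, -0.07 and 1.38, with 18 of 29 below 0. The groups differed by -0.71 (SE 0.13, adjusted p-value = 0.0236, limma). In the fits within each group Ces1d fell in the rising strains (mean -0.80, adjusted p-value = 4.81e-06, limma) and had -0.09 in the falling strains (adjusted p-value = 0.791). It also fell in the middle strains (mean -0.53, adjusted p-value = 0.0015, limma), so the fall was not particular to the rising strains. Without the 5 BeadChips the difference between the groups was -0.65 (adjusted p-value = 0.0770), and over identity-matched pairs it was also -0.65 (adjusted p-value = 0.114).

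Kcnh2 encodes the pore subunit of the rapid delayed rectifier potassium channel. In the rising strains its difference was -1.10 at the lowest, -0.26 at the median and 0.94 at the highest, and in the falling strains -0.36, 0.16 and 1.24. It was below 0 in 24 of 29 rising strains and above 0 in 21 of 29 falling strains, a difference of -0.49 (SE 0.10, adjusted p-value = 0.0260, limma). Its other probe ILMN_1244402 gave -0.32 (SE 0.08, adjusted p-value = 0.137), in the same direction but short of the threshold. Without the 5 BeadChips Kcnh2 at ILMN_3123864 gave -0.37 (adjusted p-value = 0.245), and over identity-matched pairs -0.32 (adjusted p-value = 0.330).

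Cmtm8, a transmembrane protein of the chemokine-like factor family, had a median difference of -0.26 in the rising strains (from -0.98 to 0.40) and of 0.24 in the falling strains (from -0.55 to 1.12). The difference between the groups was -0.52 (SE 0.10, adjusted p-value = 0.0260, limma). The Cmtm8 level without ISO had a mean of 9.31 (SD 0.59) in the rising and 8.81 (SD 0.68) in the falling strains, and with ISO 9.04 and 9.07, and neither level passed (adjusted p-value = 0.999 for each). The Cmtm8 difference was -0.44 without the 5 BeadChips (adjusted p-value = 0.0770) and over identity-matched pairs -0.48 (adjusted p-value = 0.133). Pcnt, the centrosome scaffold pericentrin, differed by -0.41 (SE 0.08, adjusted p-value = 0.0264, limma), with medians of -0.15 and 0.18. Gab1, a docking protein of receptor tyrosine kinases, differed by -0.32 (SE 0.07, adjusted p-value = 0.0490, limma). It was below 0 in 24 of 29 rising and above 0 in 21 of 29 falling strains. Pcnt gave -0.36 without the 5 BeadChips (adjusted p-value = 0.248) and Gab1 -0.29 (adjusted p-value = 0.225), and over identity-matched pairs they gave -0.36 (adjusted p-value = 0.139) and -0.34 (adjusted p-value = 0.0571). Without background correction Pcnt passed at -0.27. The unnamed probe ILMN_2526208, detected on 75% of all arrays, differed by 0.67 (SE 0.14, adjusted p-value = 0.0328, limma). Its value was 0.21 without background correction (adjusted p-value = 0.0571), 0.54 without the 5 BeadChips (adjusted p-value = 0.248) and 0.38 over identity-matched pairs (adjusted p-value = 0.468), so the call was lost in each.

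**Figure D3:**
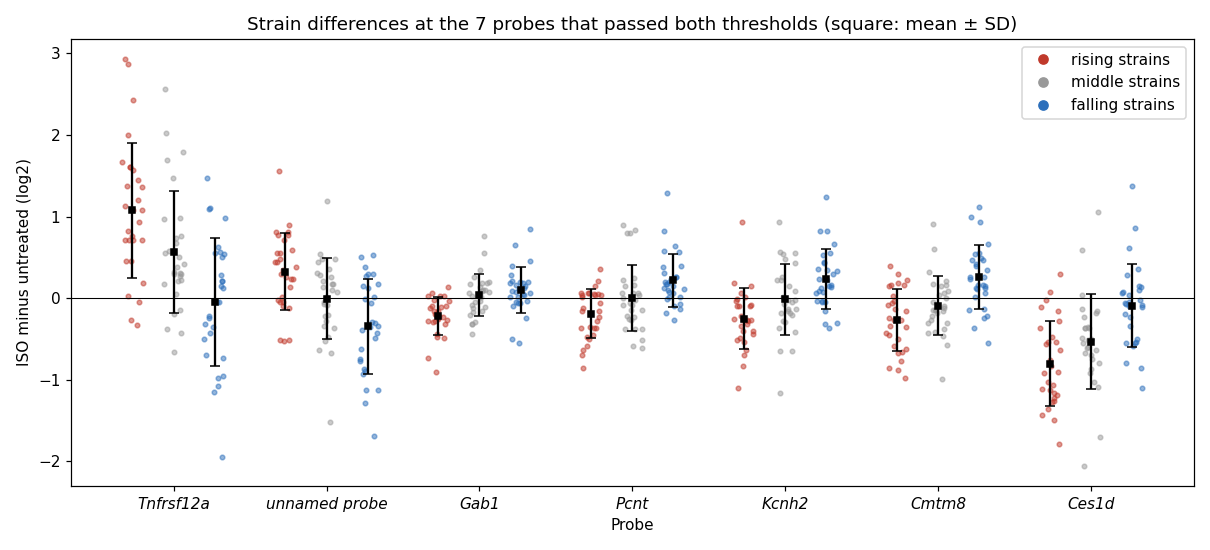
ISO minus untreated difference (log2, vertical axis) at the 7 probes past both thresholds, with 1 point for each strain, in red for the rising, gray for the middle and blue for the falling strains (29 strains each). Squares are means with SD, and at every probe the clouds of the rising and falling strains overlap.

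The calls depended on the setting and the directions did not. Over 28 other settings Tnfrsf12a and Ces1d passed in 16 each, Cmtm8 and Kcnh2 in 13 each, Pcnt in 12, Gab1 in 11 and the unnamed probe in 10, and none of the 7 changed sign. These settings share strains, arrays and mostly the ranking, and some gave the same values as another. The counts and the unchanged signs are therefore not separate support. Within BeadChip sets 1, 2 and 3 Ces1d had -0.64, -0.67 and -0.46, Kcnh2 -0.43, -0.38 and -0.83, and Gab1 -0.52, -0.29 and -0.16. The unnamed probe had 0.66, 0.39 and 1.29. When repeats were not averaged and a strain kept its first array, 0 probes passed. Without AXB-19/PgnJ in the rising and AXB-4/PgnJ in the falling strains, which had an array of low similarity to the others, 20 passed. The ISO array of AXB-19/PgnJ detected 31.7% of probes, beside a median of 47.1% over the rising strains with ISO. The untreated array of AXB-4/PgnJ detected 38.1%, beside a median of 47.2% over the untreated falling strains. Both arrays are in the main fits and in the ranges given for the groups. With the slope on the Nppb difference over all 87 strains, 30 passed. With the strain family as a covariate 8 passed, but Gab1 (adjusted p-value = 0.0965, limma) and the unnamed probe (adjusted p-value = 0.094) did not. RI strains of a family share parents, and the fits treat all strains as independent.

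In a single condition hardly any probe separated the groups. In the untreated level 1 of 25696 probes (0.00389%) separated the groups, with 1059 at an unadjusted p-value under 0.05. It was Rtn1, a reticulon of the endoplasmic reticulum named here after its value was seen, which was higher in the rising strains by 0.63 (SE 0.12, adjusted p-value = 0.0339, limma). Without the 5 BeadChips 0 probes passed. In the ISO level 0 probes passed (0%), the smallest adjusted p-value was 0.525, and 1067 had an unadjusted p-value under 0.05. For Tnfrsf12a the values were -0.55 in the untreated and 0.57 in the ISO level, and neither passed.

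No other member of the natriuretic peptide system passed between the groups. Of 13 measured members 0 passed in either direction, and the median difference between the groups was -0.01, beside 0.002 over all probes. Nppa was the member with the largest value. Its difference was -2.17 at the lowest, 0.37 at the median and 2.01 at the highest in the rising strains, and -4.82, -0.61 and 4.63 in the falling strains. The groups differed by 0.78 (SE 0.36, adjusted p-value = 0.695, limma), which did not pass against the spread between strains, and the correlation with Nppb over 87 strains was 0.25. The receptors Npr1 (0.15, SE 0.13), Npr2 (-0.20, SE 0.11) and Npr3 (0.09, SE 0.19) and the convertase Corin (0.03, SE 0.12) were closer to 0. Dpp4, a peptidase that trims B-type natriuretic peptide, had -0.50 (SE 0.20, adjusted p-value = 0.594). Furin, another convertase of the precursor, gave -0.19, -0.05 and -0.08 at 3 probes.

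Transcripts of cardiomyocyte load had differences that did not pass. In the fetal and hypertrophy program 0 of 23 genes passed, while 6 were higher and 0 lower at an unadjusted p-value under 0.05, beside 2.86% higher and 3.88% lower over all probes. Rcan1, a calcineurin inhibitor, came nearest (0.45, SE 0.11, adjusted p-value = 0.0975), with medians of 0.22 in the rising and -0.20 in the falling strains. Ankrd1, a titin-associated stress protein, had 0.30 (SE 0.09, adjusted p-value = 0.283) at ILMN_2950286 and 0.47 (SE 0.24) at ILMN_2625451. The adult myosin Myh6 had -0.72 (SE 0.19, adjusted p-value = 0.174) at ILMN_2640008 and -0.14 (SE 0.08) at ILMN_2788836, where 1 rising strain had -2.26 beside medians of -0.11 in the rising and -0.04 in the falling strains. Myh7 had 0.25 (SE 0.30). In the falling strains the skeletal actin Acta1 had a median difference of -0.58, against -0.13 in the rising strains (0.47 between them, SE 0.29). Gata4, a factor that binds GATA motifs, had -0.16 (SE 0.15). Among 15 genes that respond to mechanical stress 6 were higher at an unadjusted p-value under 0.05, among them Ankrd23 (0.37, SE 0.13). Ankrd1 and Ccn2 count in both lists, so the lists are not separate. Over detected probes only, 1024 of 11734 reached that level in either direction, beside 1732 of all 25696.

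Genes of energy metabolism had few values above 0 between the groups, and none passed. Values above 0 were found in 4 of 23 fatty acid oxidation, 4 of 18 TCA cycle, 9 of 32 oxidative phosphorylation and 6 of 23 glycolysis and glycogen genes, beside 51% of all probes. At an unadjusted p-value under 0.05, 3.88% of all probes were lower and 2.86% higher. Over detected probes only, 1024 of 11734 reached that level in either direction, a larger share than over all probes. The counts below are to be read against both. Of 23 fatty acid oxidation genes 6 were lower and 0 higher at an unadjusted p-value under 0.05, and the median difference was -0.17. Cpt2, which hands long-chain fatty acids to β-oxidation in mitochondria, had -0.29 (SE 0.09, adjusted p-value = 0.260), and Etfb, an electron carrier, -0.21 (SE 0.06, adjusted p-value = 0.276). In the TCA cycle 5 of 18 and in oxidative phosphorylation 6 of 32 were lower at that level, with Ogdh at -0.39 (SE 0.12) and Cyc1 at -0.17 (SE 0.06). Of 23 glycolysis and glycogen genes 6 were lower and 1 higher, with Pdk2 at -0.51 (SE 0.18). At Pdk2 the lowest rising strain had -3.65, beside medians of -0.38 in the rising and -0.11 in the falling strains. At Ogdh the lowest rising strain had -2.52, beside medians of -0.21 and 0.06. Among 17 potassium and sodium channel genes Kcnh2 passed and 6, Kcnh2 included, were lower at an unadjusted p-value under 0.05. Over the 39 lists, 664 genes were measured, and Kcnh2 was the 1 that passed.

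Transcripts of matrix and of other cells were compared to show how much of the LV tissue changed beside Nppb. Of 34 extracellular matrix genes 32 had a value above 0 between the groups, beside 51% of all probes, but 0 passed and the median was 0.15, beside 0.002 over all probes. Tnc, a matrix protein of injury, had 0.76 (SE 0.30, adjusted p-value = 0.556) and Ccn2, a matricellular growth factor, 0.49 (SE 0.19, adjusted p-value = 0.567). Timp1, an inhibitor of matrix metalloproteinases, had 0.96 (SE 0.40) and 1.05 (SE 0.40) at its probes. Lgals3, the macrophage and fibrosis protein galectin-3, had 0.44 (SE 0.45). The mean change of 17 fibroblast markers was -0.71 at the lowest, 0.41 at the median and 1.23 at the highest in the rising strains, and -0.64, 0.24 and 0.91 in the falling strains. For 23 macrophage markers these values were -0.69, 0.38 and 1.59, and -1.03, 0.14 and 1.28. The mean change of 15 atrial cardiomyocyte markers, which rises when atrial tissue is left on a ventricle, ran from -2.5 to 2.31 with a median of -0.03 in the rising strains and from -2.11 to 1.13 with a median of 0.06 in the falling strains. With that mean as a covariate the same 7 probes passed, and the part of the fibroblast and macrophage markers in the results was not tested. The share of probes detected on an array had an ISO minus untreated change that differed by -0.179 percentage points between the rising and the falling strains (two-sided permutation test, 100000 permutations, p = 0.841).

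**Figure D4:**
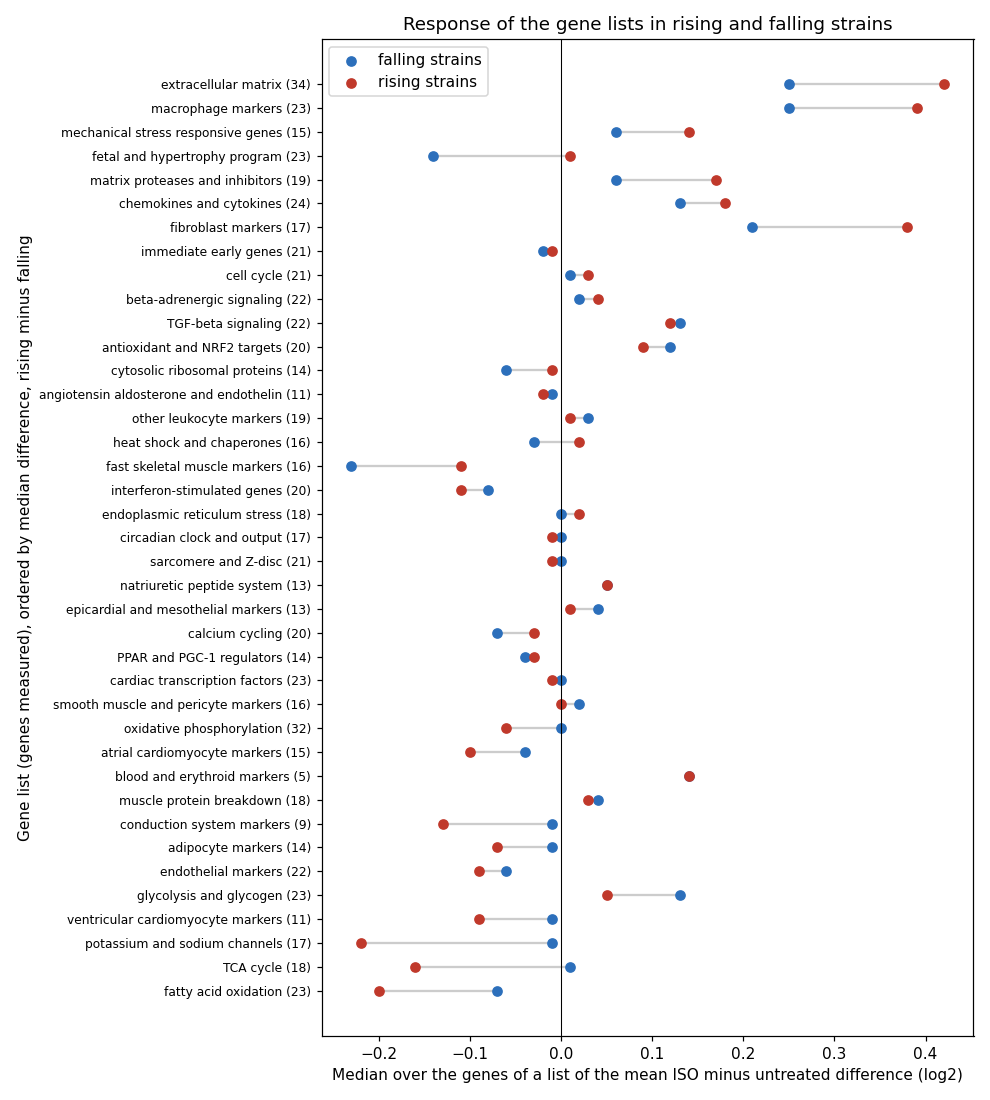
Median over the genes of each list of the mean ISO minus untreated difference (log2, horizontal axis), in red for the rising and blue for the falling strains, for 39 lists with the number of genes measured. Matrix, fibroblast and macrophage lists lie right of 0 in both groups, and the fatty acid oxidation list lies at -0.20 in the rising and -0.07 in the falling strains.

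Within each group ISO was compared with the untreated state over the 29 strains. In the rising strains 1212 probes (4.72%) passed, 546 up (2.12%) and 666 down (2.59%). In the falling strains 375 (1.46%) passed, 230 up (0.895%) and 145 down (0.564%). In the 29 middle strains 987 (3.84%) passed, 516 up (2.01%) and 471 down (1.83%). The standard errors were alike (median 0.061 and 0.057), and 126 probes were up and 72 down in both groups, which is 16.3% of the calls in the rising and 52.8% of those in the falling strains, with 0 called in opposite directions. A probe that passed in 1 group and not in the other is not thereby shown to differ, and the direct test gave the 7 probes above. Without the 5 BeadChips 1624 and 700 probes passed.

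Timp1 and Lgals3 rose in both groups. At ILMN_3103896 Timp1 rose by 2.24 (SE 0.31, adjusted p-value = 3.34e-05, limma) in the rising and by 1.28 (SE 0.25, adjusted p-value = 0.00332) in the falling strains. Lgals3 rose by 1.74 (SE 0.29) and 1.30 (SE 0.33, adjusted p-value = 0.0316), and Col3a1, a fibrillar collagen chain, by 0.93 (SE 0.16) and 0.54 (SE 0.13, adjusted p-value = 0.0232). Over all probes 2.12% rose in the rising and 0.895% in the falling strains, and 2.59% and 0.564% fell, so the falling strains had fewer calls among all probes too. Of 34 matrix genes 16 rose in the rising and 8 in the falling strains, and 0 fell in either. Of 23 macrophage markers 11 rose and 1 fell in the rising strains, and 2 rose in the falling strains. In fatty acid oxidation 9 of 23 genes fell in the rising strains, among them Cpt2 (-0.42, SE 0.06) and Etfb (-0.28, SE 0.06), and 1 fell in the falling strains. In the middle strains Cpt2 fell as well (-0.29, adjusted p-value = 0.00687, limma), while Etfb had -0.11 (adjusted p-value = 0.157). Cacna1g, a T-type calcium channel, fell by 0.61 (SE 0.09) in the rising strains and had -0.18 (SE 0.11) in the falling ones. In the falling strains Smad6, an inhibitor of BMP signaling, rose by 0.25 (SE 0.06), and Synpo2l, a Z-disc protein, fell by 0.47 (SE 0.09), beside -0.04 (SE 0.10) and -0.22 (SE 0.08) in the rising strains. Between the groups Cacna1g (-0.43, adjusted p-value = 0.368, limma), Smad6 (-0.29, adjusted p-value = 0.56) and Synpo2l (0.26, adjusted p-value = 0.709) did not pass. Synpo2l also fell in the middle strains (-0.35, adjusted p-value = 0.014, limma).

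The size of the common response was read at the 987 probes called in the middle strains, whose strains belong to neither group. This measure was chosen after seeing the data and is a description. The mean response in the direction of the middle strains was -0.42 at the lowest, 0.48 at the median and 0.79 at the highest over the rising strains, and -0.31, 0.28 and 0.59 over the falling strains. In 742 of the 987 probes (75.2%) the rising strains had the larger mean response. The ranges overlapped almost wholly, and the means (0.39, SD 0.27, and 0.28, SD 0.21) lay less than 1 SD apart. Without the 5 BeadChips the share was 79.5% of 924 probes.

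**Figure D5:**
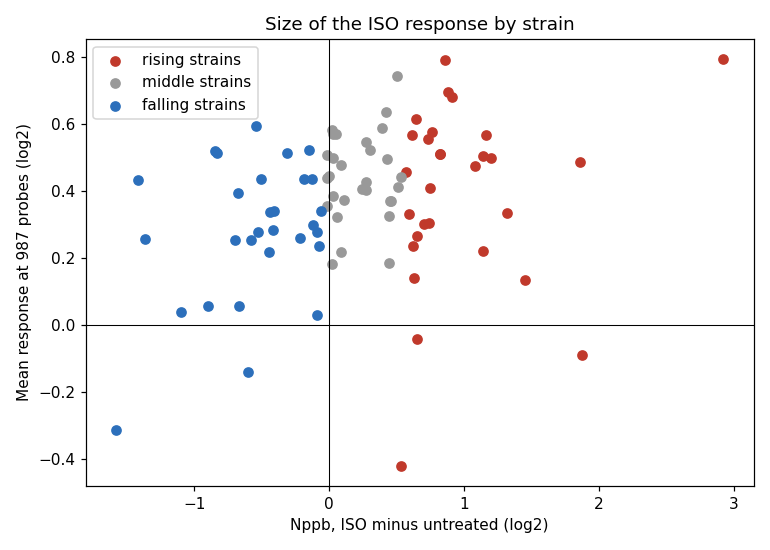
Mean response of each strain at 987 probes called in the middle strains (log2, signed by their direction there, vertical axis) against its Nppb difference (log2, horizontal axis). The falling strains (blue) have a median of 0.28 and the rising strains (red) one of 0.48, with overlapping ranges, and gray points are the middle strains in which the probes were chosen.

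The transcripts whose ISO change was most like that of Nppb over the 87 strains were Sphk1, which makes sphingosine-1-phosphate (r = 0.52), Otulin, a deubiquitinase (0.49), Rcan1 (0.48), Lman1l, a lectin-like protein, at 3 probes (0.48, 0.45 and 0.45), Tnfrsf12a and the unnamed probe (0.47 each), followed by Ciao3 and Fkbp5, a glucocorticoid-induced co-chaperone. The most opposite were Kcnh2 (-0.52), Cmtm8 (-0.51), Ces1d (-0.49), Dusp10, a MAP kinase phosphatase, and the other probe of Kcnh2. All points share their arrays with Nppb, so these coefficients rank patterns and carry no test. Sphk1 differed between the groups by 0.68 (SE 0.17, adjusted p-value = 0.130), with medians of 0.79 and 0.21. Lman1l at ILMN_3127595 differed by 1.04 (SE 0.28, adjusted p-value = 0.201) and rose in the rising strains by 1.4 (SE 0.17). At ILMN_3051282 Lman1l differed by 0.72 (SE 0.17, adjusted p-value = 0.0931, limma), with 0.77 in the rising and 0.04 in the falling strains. The Fkbp5 levels of the groups differed by -0.79 without ISO (adjusted p-value = 0.733) and by -0.02 with ISO (adjusted p-value = 0.999), and neither passed.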

How the data were processed

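The LV of female HMDP mice, untreated or given ISO, was profiled with MouseRef-8 v2.0 BeadChips of Illumina, which have a single color (106 untreated, 102 ISO). The authors exported the deposited intensity values and detection p-values from GenomeStudio 2010.3, before background correction, and made the deposited log2 values with the neqc function of limma (background correction and quantile normalization). In a check, 208 of 208 deposited log2 columns had their highest correlation with their own array normalized here (median absolute difference 0.00057). Of 25697 gene probes 23978 carry 1 gene symbol and 1719 none, and Adrb1, under no symbol there, was not analysed. The 829 control probes were not used. The number of arrays limits the precision.

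Log2 values were averaged per strain and condition. Strains were paired across conditions because they are the same genotype (deviations of the conditions correlated over 0.1 in 80 of 87 strains, median 0.48). The arrays of a strain mostly lay on the same BeadChip, so this correlation does not separate genotype from BeadChip. Strain differences were compared by limma 3.58.1 (R 4.3.3, lmFit and eBayes), adjusted after Benjamini-Hochberg over 25696 probes. Calls needed an adjusted p-value under 0.05 with an absolute log2 difference over 0.2. The fits were checked on simulated data. Genes named are those past both thresholds, up to 4 members of a list that passed or the 2 smallest p-values, the peptide system and load markers at each probe, and the patterns most like or opposite to Nppb. A list used for each gene the probe of the highest mean. Members, lists and tests were chosen with earlier results of these data known. The alternatives covered normalization, BeadChips, identity, repeat arrays, covariates and the limits of the ranking. Strain names are written in a common spelling.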

Additional observations from a re-analysis of the deposited data

Results flagged for a closer look

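The ISO change differed between the rising and falling strains, by a direct test, at 7 probes. The difference was 1.12 on the log2 scale at Tnfrsf12a, 0.67 at the unnamed probe ILMN_2526208, -0.71 at Ces1d, -0.52 at Cmtm8, -0.49 at Kcnh2, -0.41 at Pcnt and -0.32 at Gab1. At 0 probes did both groups pass with opposite signs. Groups held more than 10 strains, so no single strain was examined as a stray value. The part of the doubtful array labels in these differences was not tested beyond leaving the arrays out.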

How the results depend on the processing

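Of 28 alternatives for the difference between the groups, where 7 probes passed, 8 kept the count within 1.5 times and 20 moved it. It fell to 0 without BeadChips 12, 19, 23, 24 and 25, with median scaling, with pairs on the same BeadChip, with the first array of a strain, within BeadChip sets 1 and 3 alone and with all strains split at the middle rank. It was 1 over identity-matched pairs, 2 with the top and bottom 21 strains, 4 with the BeadChip as a fixed block, 14 with the strains ranked again and 20 with the same groups without arrays of low connectivity, 15 with the detected share as a covariate, 21 in BeadChip set 2 alone, 30 with the slope on the Nppb difference and 33 with the strains ranked again without background correction. Without background correction and with the same groups, 1 was higher and 6 lower, instead of 2 and 5. Of the alternatives chosen after seeing the data, 2 passed with the strains ranked again on identity-matched pairs, 0 without the 5 strains of BeadChips 19 and 24 in the outer ranks and 2 without all strains of the doubtful BeadChips and BeadChip 6. Neither the 1 probe over identity-matched pairs nor the 2 with the strains ranked again on them were among the 7. With no replicate block, so that the strain was not paired, 0 probes passed and the smallest adjusted p-value was 0.666, at the same differences. In the untreated level the 1 call went to 0 without the 5 BeadChips or without arrays of low connectivity and to 3 over detected probes only. Without background correction 794 probes passed in the rising and 245 in the falling strains, beside 1212 and 375, and without the 5 BeadChips 700 passed in the falling strains. The detected share reversed from -0.179 to 0.645 percentage points (permutation p = 0.166) without arrays of low connectivity. The cause of these shifts was not tested. Of the named results, 11 passed in at least 1 alternative but not as reported, and 0 called values changed sign.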
